A study of Mus musculus with 22 samples.

Results

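The B7 family comprises cell surface ligands of the immunoglobulin superfamily that deliver costimulatory or coinhibitory signals to T cells. Its 8 listed members, Cd274, Pdcd1lg2, Cd80, Cd86, Icosl, Cd276, Vtcn1 and 4632428N05Rik, were taken by name from a table of 46882 genes, and all 8 were found in it. CD80 and CD86 on antigen-presenting cells bind CD28, which costimulates T cells, and CTLA-4, which restrains them. PD-L1 (Cd274) and PD-L2 (Pdcd1lg2) bind PD-1, and the ICOS ligand (Icosl) binds ICOS. B7-H3 (Cd276), B7-H4 (Vtcn1) and VISTA (4632428N05Rik, now named Vsir) are mostly described as inhibitors of T cell activation. In tumors, PD-L1 can be carried by cancer cells and by infiltrating myeloid cells, and interferon gamma from T cells is a known inducer of it.

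Total RNA was extracted and sequenced as 3′ mRNA libraries, of which 16 in 6 groups were used. Cultured MC38 cells, a colon carcinoma line of C57BL/6 origin, gave 2 libraries labelled day 0, and normal skin of wild type C57BL/6N mice gave 2 libraries labelled day 23. The 12 tumors grew from 50000 MC38 cells injected subcutaneously into the flank, and comprised 3 of day 23 and 3 of day 46 in wild type C57BL/6N mice, and 3 of day 13 and 3 of day 23 in mice labelled RAG1-/- of the strain B6.129S7-Rag1tm1Mom/J. The age given for the mice is 8 to 12 weeks, for tumor hosts the age at injection, and female hosts were used for the tumors. Hosts of later days were therefore sampled longer after that age. Mice without RAG1 make no mature T and B cells but keep NK cells and myeloid cells, and the strain cannot be told apart from the genotype. All tumors descend from a single cell line, and the RNA came from a piece of the excised tumor, so host cells are part of it. Day 23 was the only day present in both hosts. The labels number the 2 MC38 libraries without saying whether they were separate cultures. Where tumors were compared with MC38 cells, the spread was estimated over all libraries fitted, most of them tumors. These p-values assume that MC38 libraries vary like the tumors, and a spread between separate cultures may not be covered.

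Libraries held 5589151 to 26134241 reads on genes, and 3 reads, used as the detection floor, stood at 1.33 to 6.38 normalized counts. Values are counts of 3′ reads per gene divided by a size factor per library, and log2 differences are on the log2(normalized count + 1) scale, which understates the change of low genes. Reads of Rag1 were found in all 6 tumors labelled RAG1-/- (1 to 12 reads) and in 1 of 6 wild type tumors (1 read), against the labels. The position of the deletion relative to the 3′ reads is not given in the sources used here, so this gene does not check the labels. The T cell marker Cd3e followed them, with 0 reads in all 6 tumors labelled RAG1-/- and 3.91 to 23.2 normalized counts in wild type tumors. Of the 8 T cell markers, 5 had a read in tumors labelled RAG1-/-. The sums of the 8 overlapped, at 20.01 in RAG1-/- day 13 replicate 3 and 19.5 in wild type day 46 replicate 1. The sums of 6 B cell markers overlapped as well (38.3 to 152 in tumors labelled RAG1-/-, 108 to 458 in wild type tumors). The 7 epithelial markers of a colon line were low in MC38 cells, at 4.28 and 7.82 summed normalized counts, with 4 of 7 read (Epcam at 0 and 3.91) and Cdx2, Krt18 and Krt19 at 0. Skin held epidermis and, with 67335 to 100587 summed normalized counts of 4 genes, skeletal muscle. Wild type day 23 replicate 2 held keratin reads (Krt5 at 136 normalized counts), and replicates 1 and 3 of the RAG1-/- tumors of day 13 held muscle reads (Acta1 at 4374 and 4965).

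The 8 genes lie on 5 chromosomes of GRCm38 (mm10). Cd274 (chr19:29367455-29388095, plus strand) and Pdcd1lg2 (chr19:29410919-29471161, plus strand) are neighbours, 22823 bases apart with no annotated gene between them. Cd80 (chr16:38455561-38496335, plus strand) and Cd86 (chr16:36603869-36666081, minus strand) share a chromosome, as do Icosl (chr10:78069302-78083913, plus strand) and 4632428N05Rik (chr10:60346851-60372684, plus strand), which lies inside Cdh23 on the opposite strand. Cd276 lies at chr9:58524298-58555437 (minus strand) and Vtcn1 at chr3:100825459-100896922 (plus strand). Of the exonic bases of Cd274, 14.1% lie opposite AC119228.1, and of those of Cd276, 11.4% lie opposite Gm10657. Whether counting used the strand is not given in the sources used here. In both genes none of these shared bases fall in the last 500 exonic bases.

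RefSeq promoter windows were matched for 7 of the 8 genes, with no entry for Cd86. The 250 bases before the start are shown for Cd274, the member that differed between hosts, for Cd276, whose difference had the opposite sign, and for 4632428N05Rik, a member almost without reads in MC38 cells. They are printed in the direction of the gene, in lower case with CpG dinucleotides in capitals, at chr19:29367188-29367437 (plus strand), chr9:58555034-58555283 (minus strand) and chr10:60346601-60346850 (plus strand) of GRCm38.p6.
Cd274: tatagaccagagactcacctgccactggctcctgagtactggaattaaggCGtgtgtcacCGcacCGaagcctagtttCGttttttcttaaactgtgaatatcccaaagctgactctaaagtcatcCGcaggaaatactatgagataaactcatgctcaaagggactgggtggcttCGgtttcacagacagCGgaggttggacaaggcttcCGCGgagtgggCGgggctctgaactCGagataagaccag
Cd276: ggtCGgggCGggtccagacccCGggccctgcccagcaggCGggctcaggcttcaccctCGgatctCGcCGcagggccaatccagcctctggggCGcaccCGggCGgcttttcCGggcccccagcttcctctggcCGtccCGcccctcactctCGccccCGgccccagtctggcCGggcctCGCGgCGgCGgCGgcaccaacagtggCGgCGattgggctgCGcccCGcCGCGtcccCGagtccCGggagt
4632428N05Rik: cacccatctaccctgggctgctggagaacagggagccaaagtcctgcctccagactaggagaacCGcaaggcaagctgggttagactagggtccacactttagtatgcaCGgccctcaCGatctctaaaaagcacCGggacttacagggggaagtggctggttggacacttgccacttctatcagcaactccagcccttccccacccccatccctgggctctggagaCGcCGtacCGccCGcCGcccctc
These stretches held 11 CpGs in Cd274, 29 in Cd276 and 9 in 4632428N05Rik, against 23 in Icosl, 5 in Vtcn1, 3 each in Pdcd1lg2 and Cd80 and a median of 6 over 32544 promoters. Each window, extended by 50 bases past the start, was searched on both strands for a strict form of the ISRE of IRF factors and of the kappa B motif. No member's window held a match to either strict form. These forms occur in 3.45% and 1.47% of all 32544 windows. Looser forms of the motifs were not searched, so the absence of ISRE or kappa B sites from these windows is not shown. Other parts of the genes were not searched either.

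**Figure D1:**
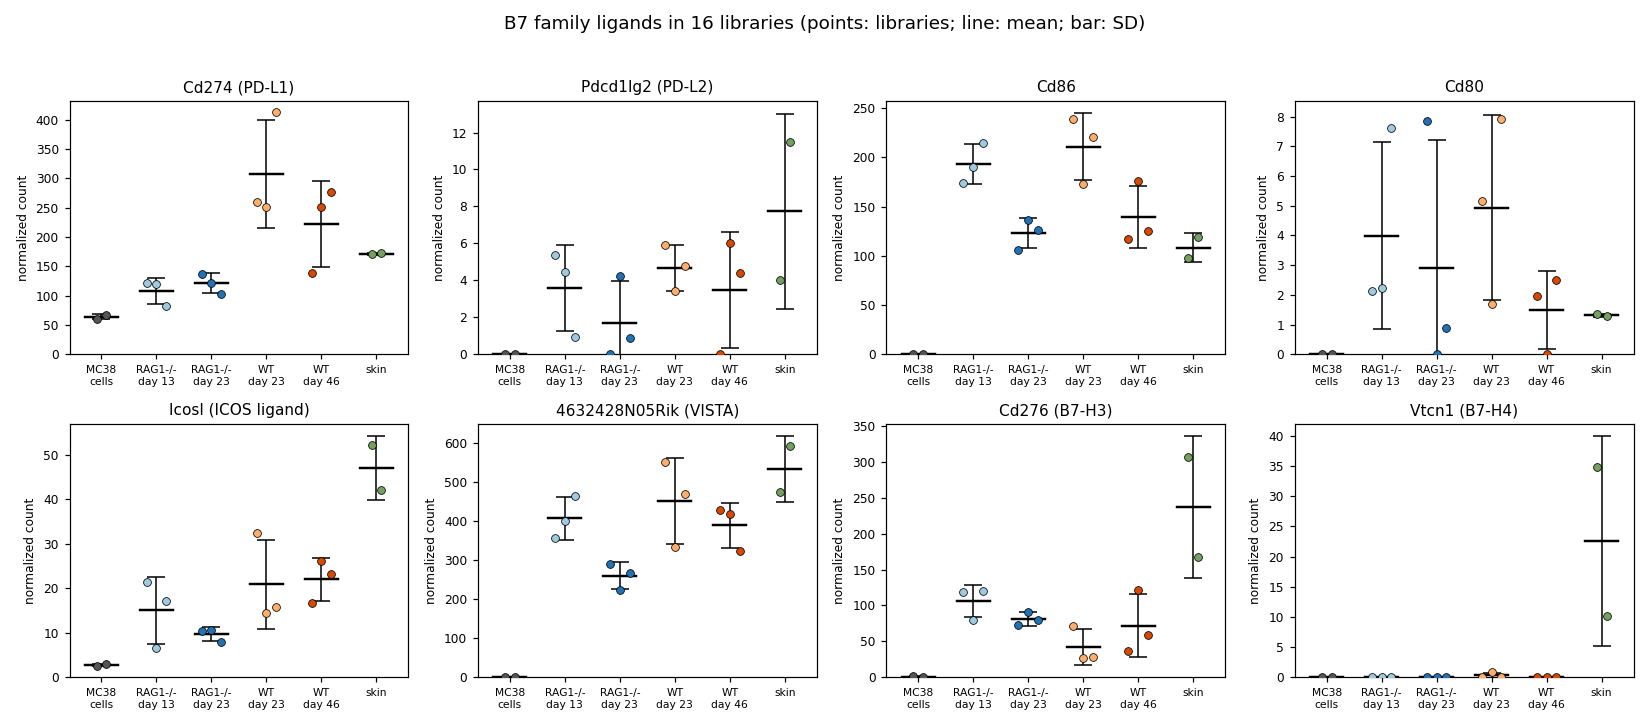
Normalized counts (linear axis from 0) of the 8 B7 family ligands in MC38 cells, the 4 tumor groups and skin, with points for libraries, lines for group means and bars for the SD (n = 2 for MC38 cells and skin, n = 3 for tumors). Cd274 stood lowest in MC38 cells and highest in wild type tumors, Cd86 and 4632428N05Rik were at or near 0 in MC38 cells, and Vtcn1 was at or near 0 outside skin.

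Among the ligands of PD-1, Cd274 was higher in wild type tumors than in tumors labelled RAG1-/- and lower in MC38 cells than in every tumor. MC38 cells had 60.7 and 67.5 normalized counts of Cd274. Tumors labelled RAG1-/- had 122, 119 and 81.9 at day 13 and 137, 121 and 103 at day 23. Wild type tumors had 259, 251 and 414 at day 23 and 138, 251 and 276 at day 46, and skin had 170.1 and 172. From lowest to highest mean the order was MC38 cells, RAG1-/- day 13, RAG1-/- day 23, skin, wild type day 46 and wild type day 23, and of these neighbours the RAG1-/- groups overlapped each other, skin overlapped wild type day 46, and the wild type groups overlapped each other. All 6 wild type tumors stood above all 6 labelled RAG1-/-, the closest pair being 138 in wild type day 46 replicate 1 and 137 in RAG1-/- day 23 replicate 1.

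Over both days Cd274 was 2.23-fold higher in wild type tumors (log2 difference 1.15, SE 0.21, 95% confidence interval of the fold 1.64 to 3.02, adjusted p = 0.0124 from limma). The exact permutation p of 6 against 6 tumors was 0.00216, two-sided and the smallest that this design can give. At day 23 alone the log2 difference was 1.31 (SE 0.29) and did not pass over all genes (adjusted p = 0.0805 from limma), with an exact permutation p of 0.1, the smallest that 3 against 3 can give. Without the mean-dependent trend in the spread, the difference over both days did not pass either (adjusted p = 0.0657), and the contrast sets days 23 and 46 against days 13 and 23. The summed normalized count of the 8 T cell markers was 19.5 to 222 in wild type tumors and 2.22 to 20.01 in those labelled RAG1-/-. The hosts thus overlapped in this sum, although Cd3e, Cd3g and Cd8b1 had no read in tumors labelled RAG1-/-. The 10 macrophage and monocyte markers summed to 12877 to 22177 and 10190.1 to 16590 (10 of 10 genes read in both), and the 8 dendritic cell markers to 610 to 1252 (8 of 8 read) and 381 to 704 (7 of 8 read, with Xcr1 at 0). The 6 B cell markers summed to 108 to 458 in wild type tumors (6 of 6 read) and 38.3 to 152 in those labelled RAG1-/- (5 of 6 read, with Cd79a at 0). Of the 3 that were tested, Igkc alone passed, over both days and at day 23 (limma adjusted p = 7.60e-07 and 0.000256). Igkc had no read in RAG1-/- tumors of day 13, and mice without RAG1 make no mature B cells, so this call was foreseeable and adds no support. At day 23 the hosts did not overlap in the sum of the 3 pan-leukocyte genes Ptprc, Coro1a and Laptm5 (3045 to 4351 in wild type tumors, 2062 to 3031 in those labelled RAG1-/-, 3 of 3 read in both). Nor did they in the sum of the dendritic cell markers (805 to 1252 and 381 to 704), whereas the macrophage and monocyte sums overlapped (13381 to 22177 and 10253 to 16590). The dendritic cell markers are not confined to leukocytes here, as they summed to 112 and 103 in MC38 cells (3 of 8 read). None of the 3 pan-leukocyte and 4 dendritic cell genes tested at day 23 passed, with median log2 differences of 0.54 and 0.21. The part of these cells in the difference was not tested, and in bulk tissue fewer cells of a type and less RNA per cell cannot be told apart.

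Against the injected cells, Cd274 was 3.89-fold higher in wild type tumors (log2 difference 1.96, SE 0.28, 95% confidence interval of the fold 2.57 to 5.89, adjusted p = 3.61e-05 from limma). In tumors labelled RAG1-/- the fold was 1.75 (log2 difference 0.81, SE 0.28, 95% confidence interval 1.16 to 2.64, adjusted p = 0.0480). That call was lost under 13 of 17 alternatives (adjusted p 0.0345 to 0.259 over the 17). It was lost without MC38 replicate 1 (0.259) or 2 (0.182), without replicate 1 (0.0842) or 2 (0.0805) of RAG1-/- day 13, and without replicate 1 (0.0741) or 2 (0.0663) of RAG1-/- day 23. Cd274 was also lower in MC38 cells than in skin, by 1.40 on the log2 scale (SE 0.23, adjusted p = 0.00527), a call lost when either skin library was left out (adjusted p = 0.0557 and 0.0538). Wild type tumors and skin differed by 0.56 (SE 0.29, adjusted p = 0.115), but this passed under upper quartile and total rescaling, in edgeR, and without wild type day 46 replicate 1 (adjusted p = 0.00693, 0.0140, 0.0392 and 0.0256). In neither host did Cd274 pass between days, with a log2 difference of −0.49 from day 23 to day 46 in wild type tumors (SE 0.29, adjusted p = 0.663) and of 0.18 from day 13 to day 23 in those labelled RAG1-/- (SE 0.29, adjusted p = 0.869).

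Pdcd1lg2, the other PD-1 ligand, was close to the detection floor. Its normalized counts were 5.35, 4.45 and 0.953 in RAG1-/- tumors of day 13 and 0, 4.26 and 0.884 at day 23. Wild type tumors had 5.90, 3.41 and 4.75 at day 23 and 0, 6.04 and 4.39 at day 46, with 4.02 and 11.5 in skin and no read in MC38 cells. The tumor groups overlapped, and a difference between hosts was not detectable at this depth, with 31 reads in 6 wild type tumors and 14 in 6 labelled RAG1-/- (exact permutation p = 0.407, two-sided). The gene did not reach the mean of 5 normalized counts that the fits required.

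Of the ligands of CD28 and CTLA-4, Cd86 was abundant in every tumor and in skin and had no read in MC38 cells. RAG1-/- tumors had 174, 190.1 and 214 normalized counts at day 13 and 106, 136 and 126 at day 23. Wild type tumors had 239, 173 and 220.2 at day 23 and 117, 176 and 126 at day 46, and skin had 97.8 and 119. In each host the later group had the lower mean, and in tumors labelled RAG1-/- the days did not overlap. With MC38 cells set at the floor of 3 reads per library, Cd86 was at least 57.4-fold higher in tumors labelled RAG1-/- and at least 63.7-fold higher in wild type tumors (limma adjusted p = 2.82e-13 and 1.96e-13). The pan-leukocyte genes Ptprc, Coro1a and Laptm5 summed to 2062 to 4351 normalized counts in the 12 tumors and to 0 and 0.978 in the MC38 libraries.

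Between hosts Cd86 differed by 0.14 on the log2 scale over both days (SE 0.16, 95% confidence interval −0.20 to 0.49, adjusted p = 0.796 from limma) and by 0.77 at day 23 (SE 0.23, adjusted p = 0.198). The differences between days were −0.65 in tumors labelled RAG1-/- (SE 0.23, adjusted p = 0.291) and −0.60 in wild type tumors (SE 0.23, adjusted p = 0.506), so neither passed over all genes. At day 23 the pan-leukocyte and dendritic cell markers, given above for Cd274, had larger sums in all wild type tumors as well. None of the genes tested in these lists passed, and their part was not tested. Between the days of the tumors labelled RAG1-/- the pan-leukocyte genes summed to 2789 to 3789 at day 13 and 2062 to 3031 at day 23 (median log2 difference −0.51), and their part in the difference was not tested. The macrophage and monocyte markers overlapped between these groups (10190.1 to 16587 at day 13, 10253 to 16590 at day 23), whereas the 4 skeletal muscle genes summed to 296 to 7997 at day 13 and 37.6 to 58.9 at day 23. Cd86 was 1.57-fold higher in wild type tumors than in skin (log2 difference 0.65, SE 0.23, adjusted p = 0.0236), a call lost without skin replicate 1 (adjusted p = 0.153).

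Cd80 was read far less often. Its normalized counts were 2.14, 2.22 and 7.62 in RAG1-/- tumors of day 13, and 7.86, 0 and 0.884 at day 23. Wild type tumors had 5.16, 1.70 and 7.92 at day 23, and 1.95, 0 and 2.51 at day 46. Skin had 1.34 and 1.27, and MC38 cells had no read. All tumor groups overlapped, with 20 reads in each host, and the exact permutation p between hosts was 0.972 (two-sided).

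Icosl, the ligand of ICOS, was highest in skin and lowest in MC38 cells, with the tumors between them. MC38 cells had 2.57 and 2.93 normalized counts, or 6 reads in all, and skin had 52.2 and 42.1. RAG1-/- tumors had 21.4, 6.67 and 17.1 at day 13 and 10.5, 10.6 and 7.95 at day 23, and wild type tumors had 32.5, 14.5 and 15.8 at day 23 and 16.6, 26.2 and 23.2 at day 46. At day 23 every wild type tumor stood above every RAG1-/- tumor, whereas over both days the hosts overlapped. Icosl was 5.76-fold higher in wild type tumors than in MC38 cells (95% confidence interval 2.70 to 12.3, adjusted p = 0.00126 from limma) and 3.32-fold higher in tumors labelled RAG1-/- (1.56 to 7.11, adjusted p = 0.0215). The latter call was lost without either MC38 library (adjusted p = 0.148 and 0.123), under a pseudocount of 5 (0.0506) and with no filter (0.0768). Icosl passed the filter through the tumors alone, so neither call against MC38 cells adds support. Between hosts the log2 difference was 0.79 over both days (SE 0.37, adjusted p = 0.427) and 0.96 at day 23 (SE 0.52, adjusted p = 0.533). Wild type tumors were below skin by 1.15 on the log2 scale without passing (SE 0.48, adjusted p = 0.0546), and passed with a pseudocount of 5, without the trend and without wild type day 23 replicate 1 (adjusted p = 0.0272, 0.0295 and 0.0296).

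4632428N05Rik, the gene of VISTA, which is carried mainly by myeloid cells and T cells, was almost without reads in MC38 cells and was abundant in tumors and skin. MC38 cells had 0.856 and 0 normalized counts, a single read. RAG1-/- tumors had 355, 399 and 463 at day 13 and 289, 223 and 267 at day 23, and wild type tumors had 549, 332 and 467 at day 23 and 427, 417 and 323 at day 46. Skin had 473 and 592. RAG1-/- tumors of day 23 were the lowest tumor group and overlapped with no other tumor group. The pooled ratio to MC38 cells was 906 in wild type tumors (95% counting interval 162 to 35781) and 724 in those labelled RAG1-/- (129.8 to 28612), and both differences passed (adjusted p = 3.51e-14 and 7.85e-14 from limma). The gene passed the filter through the tumors alone, so these p-values against MC38 cells add no support. At day 23 the hosts differed by 0.77 on the log2 scale (SE 0.21, adjusted p = 0.154), which passed in DESeq2 alone (adjusted p = 0.0400). Over both days they differed by 0.35 (SE 0.15, adjusted p = 0.369). The sums of the pan-leukocyte and dendritic cell markers did not overlap between the hosts at day 23 either. None of the genes tested in these lists passed, with median log2 differences of 0.54 and 0.21, and their part was not tested. The difference between days was −0.64 in tumors labelled RAG1-/- (SE 0.21, adjusted p = 0.271) and −0.19 in wild type tumors (SE 0.21, adjusted p = 0.835). Wild type tumors and skin differed by −0.36 (SE 0.20, adjusted p = 0.148), and the sign turned under upper quartile and total rescaling.

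Cd276, the gene of B7-H3, was the only one of the 5 tested members whose mean was lower in wild type tumors than in those labelled RAG1-/-, and this did not pass. RAG1-/- tumors had 119, 80.1 and 120.0 normalized counts at day 13 and 73.3, 91.5 and 79.1 at day 23. Wild type tumors had 70.8, 27.3 and 28.5 at day 23 and 36.2, 121 and 58.4 at day 46. At day 23 all 3 wild type tumors stood below all 3 labelled RAG1-/-, while wild type day 46 replicate 2 was the highest of the 12 tumors. The log2 difference between hosts was −0.89 over both days (SE 0.31, adjusted p = 0.259 from limma) and −1.07 at day 23 (SE 0.43, adjusted p = 0.373). The 5 fibroblast markers overlapped between the hosts at day 23 (17929 to 28573 summed normalized counts in wild type tumors, 12865 to 33623 in those labelled RAG1-/-), as did the 4 endothelial markers (323 to 398 and 305 to 462).

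Skin had 307 and 167 normalized counts of Cd276 and MC38 cells 1.71 and 0, or 2 reads. Wild type tumors were 2.18 below skin on the log2 scale (SE 0.45, adjusted p = 0.000910), with both skin libraries above all 6 tumors. The fibroblast markers summed to 232325 and 264614 in skin and to 17929 to 35030 in wild type tumors (5 of 5 genes read in both). Epidermis markers were higher in skin as well (332108 and 335920 against 230 to 1878), as were skeletal muscle markers (67335 and 100587 against 39.1 to 1145). The part of any of these in the difference was not tested. The pooled ratio to MC38 cells was 101 in tumors labelled RAG1-/- (95% counting interval 27.8 to 834) and 68.8 in wild type tumors (18.9 to 570). Both differences passed (adjusted p = 3.85e-08 and 3.21e-07), but Cd276 passed the filter through the tumors alone, so these p-values add no support. In the fit of MC38 cells and skin it passed the filter through skin alone. The gap between MC38 cells and skin (adjusted p = 0.000831) did not pass when either skin library was left out (0.0679 and 0.0596).

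Vtcn1, the gene of B7-H4, had 34.8 and 10.2 normalized counts in skin, no read in MC38 cells, and 1 read in the 12 tumors, in wild type day 23 replicate 2, the tumor with keratin reads. The pooled ratio of skin to the 12 tumors was 303 (95% counting interval 50.8 to 12318). Skin was at least 8.19-fold above the floor of MC38 cells, and Vtcn1 was lower in MC38 cells than in skin in the fit (adjusted p = 0.00460 from limma). In that fit it passed the filter through skin alone, so the p-value adds no support. It did not reach the mean of 5 normalized counts in the fits with tumors.

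Of the 5 members tested between tumor groups, 1 passed over both days (Cd274, higher in wild type tumors), against 0.570% of the 14746 genes tested that were higher, and the median log2 difference of the 5 was 0.35 against 0.01 for all genes. At day 23 none of the 5 passed, against 0.231% of genes that were higher and 0.0475% that were lower, and their median was 0.77 against 0.01. Counted over all 8, the hosts did not overlap at day 23 for 4 members that were higher in wild type tumors (Cd274, Cd86, Icosl and 4632428N05Rik) and for 1 that was lower (Cd276), where 8.50% and 7.62% of genes did so. Over both days only Cd274 did so, against 0.651% of genes. Between days 23 and 46 in wild type tumors no member passed and all 8 overlapped, where 7.02% of genes were higher and 5.44% lower without overlap. Between days 13 and 23 in tumors labelled RAG1-/- no member passed, and Cd86 and 4632428N05Rik were lower without overlap, as were 9.92% of genes, while no member was higher without overlap (9.48% of genes). In these 2 contrasts limma called 0 of 14746 genes, with 1261 and 1722 at an unadjusted p under 0.05, and edgeR called 0 and DESeq2 41 and 206. At day 23 limma called 41 genes and DESeq2 239, with Cd274 and 4632428N05Rik among the latter.

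**Figure D2:**
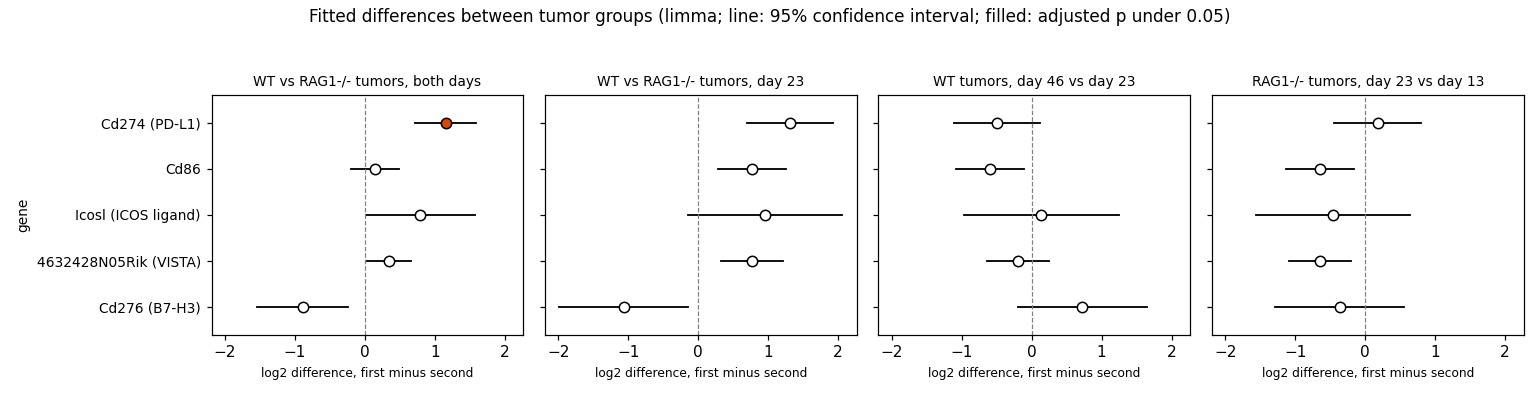
Fitted log2 differences (limma, on the log2(normalized count + 1) scale) of the 5 members tested between tumor groups in 4 contrasts, with lines for 95% confidence intervals that are not adjusted for the number of genes. Filled points passed an adjusted p of 0.05, which only Cd274 between hosts over both days did, at 1.15.

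Against MC38 cells all 5 tested members were higher in tumors of either host, where 15.8% of 14708 genes were higher in tumors labelled RAG1-/- and 18.3% in wild type tumors. These comparisons share the MC38 libraries, and Cd86, Icosl, Cd276 and 4632428N05Rik, at 0 to 6 reads in MC38 cells, passed the filter through the tumors alone, so the count is no support for the family. Against skin, Cd86 was higher and Cd276 lower in wild type tumors, where 22.8% and 34.2% of 16259 genes were, and the median of the 5 tested was −0.36 against −0.18 for all genes. In MC38 cells 6 of 6 tested members were lower than in skin, as were 41.2% of 16780 genes, and 5 of the 6, all but Cd274, passed the filter through skin alone. The direction of calls depended on the scaling. Upper quartile rescaling turned 3708 genes higher and 5554 lower in wild type tumors than in skin into 5807 and 4072, and 3482 higher and 6920 lower in MC38 cells than in skin into 5277 and 5645. It turned 2687 higher and 1413 lower in wild type tumors than in MC38 cells into 2324 and 2298, and 2317 and 1111 in tumors labelled RAG1-/- into 2091 and 1687. The median log2 difference of all genes shifted from −0.18 to 0.27 between wild type tumors and skin and from −0.40 to 0.07 between MC38 cells and skin. Among the members, only 4632428N05Rik between wild type tumors and skin changed sign with it.

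The receptors of these ligands formed a list of 8 genes, and those of T cells were close to 0 in tumors labelled RAG1-/-. Pdcd1, the gene of PD-1, had 30.2, 11.9 and 12.7 normalized counts at day 23 in wild type tumors and 3.91, 19.5 and 12.6 at day 46, against 0 to 3.34 in the 6 tumors labelled RAG1-/-. Ctla4 had 10.3, 17.9 and 3.17 at day 23 and 1.95, 11.4 and 13.8 at day 46 and no read in tumors labelled RAG1-/-, and was too low on average for the fit of the tumors. Icos, the receptor of the ICOS ligand, had 39.1, 29.0 and 15.8 at day 23 and 8.80, 28.2 and 31.4 at day 46, against 0 to 5.24. For Pdcd1, Ctla4 and Icos the hosts did not overlap, where 0.651% of the 14746 genes tested were higher without overlap. Each had an exact permutation p of 0.00216, two-sided and the smallest that 6 against 6 can give. Mice without RAG1 make no mature T cells, so these differences were foreseeable and add no support. Cd28 overlapped, with 0 to 16.8 in wild type tumors and 0 to 5.30 in those labelled RAG1-/- (exact permutation p = 0.115). Over all genes 1 of 6 tested receptors was higher in wild type tumors, where 0.570% of genes were, and none was lower. It was Icos, with a log2 difference of 3.99 (SE 0.55, adjusted p = 0.00221 from limma). Icos and Pdcd1 averaged 1.02 and 1.96 normalized counts in tumors labelled RAG1-/- and passed the filter through wild type tumors alone. Pdcd1 missed the threshold (2.37, SE 0.53, adjusted p = 0.0529). The median of the 6 was 0.89 against 0.01 for all genes, and at day 23 none passed.

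Selplg, the gene of PSGL-1, which binds VISTA at acidic pH, had 173 to 311 normalized counts in wild type tumors, 118 to 238 in those labelled RAG1-/- and no read in MC38 cells. Rgmb, which binds PD-L2, was read in every library (42.3 to 235) and was lower in wild type tumors than in skin by 0.97 on the log2 scale (SE 0.33, adjusted p = 0.0206). Igsf11, a receptor of VISTA, had 0 to 11.1 in wild type tumors and 13.4 and 14.0 in skin, lower by 2.01 (SE 0.74, adjusted p = 0.0306). Treml2, reported as a receptor of B7-H3, had 6.34 to 33.6 in tumors and 0.856 and 0 in MC38 cells. Of 8 receptors tested against skin, 3 were lower in wild type tumors (Icos, Rgmb and Igsf11), where 34.2% of all genes were, and none was higher. Skin had 135 and 185 normalized counts of Icos, more than any tumor. Skin also held T cell markers, at 323 and 435 summed normalized counts.

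**Figure D3:**
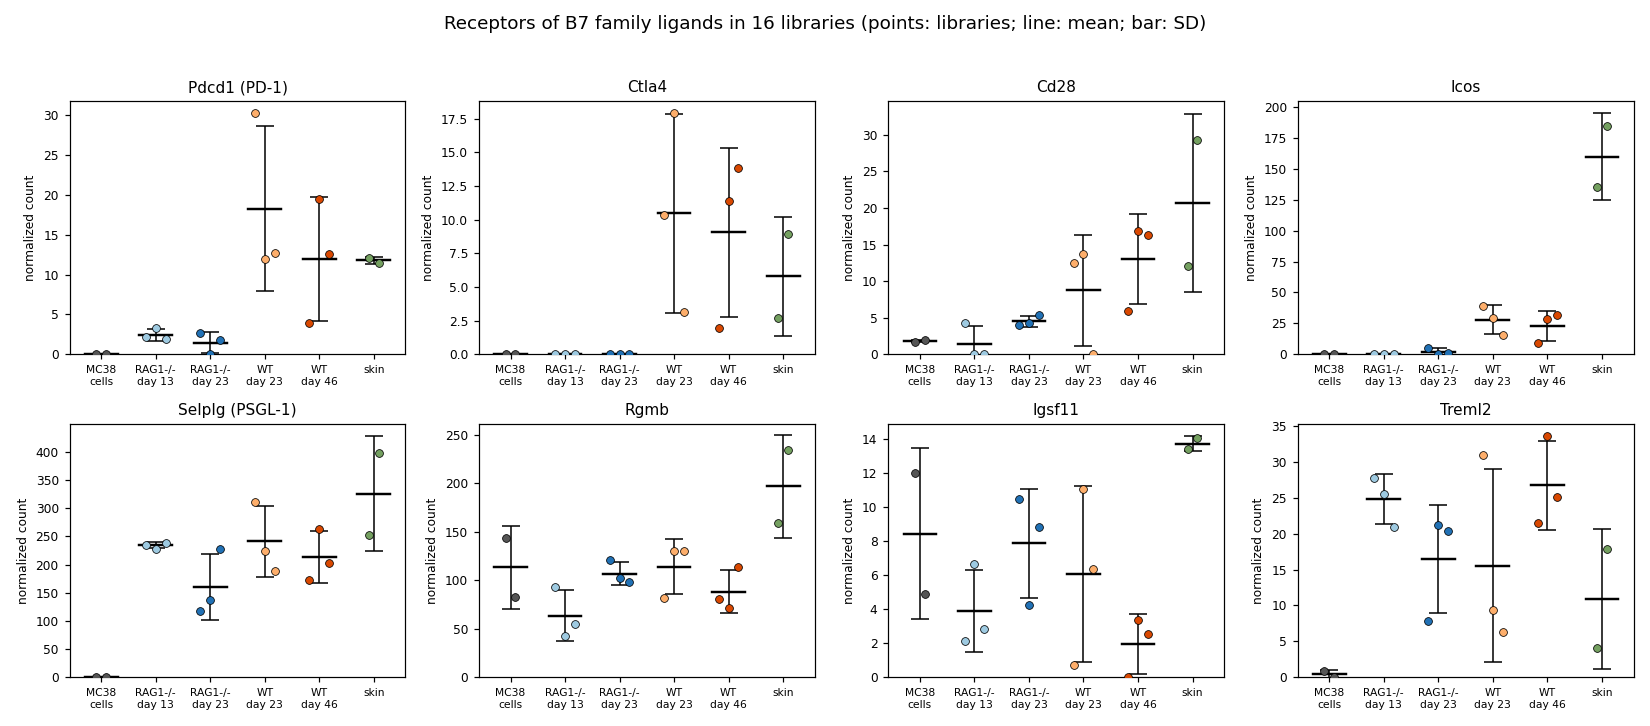
Normalized counts (linear axis from 0) of 8 receptors of B7 family ligands in the 6 groups, with points for libraries, lines for group means and bars for the SD (n = 2 for MC38 cells and skin, n = 3 for tumors). Pdcd1, Ctla4 and Icos were at or near 0 in MC38 cells and tumors labelled RAG1-/-, while Selplg was present in all tumors.

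In the path from interferon gamma to PD-L1, Irf1 was higher in wild type tumors at day 23. Irf1, an induced factor that acts on the Cd274 gene, had 2516, 1834 and 1651 normalized counts in wild type tumors of day 23 against 746, 1015 and 1087 in those labelled RAG1-/-, a log2 difference of 1.07 (SE 0.21, adjusted p = 0.0438 from limma). Over both days its log2 difference was 0.63 and did not pass (SE 0.15, adjusted p = 0.0663). Ifng itself had 1.26 to 22.9 in wild type tumors and 0 to 5.24 in those labelled RAG1-/-, without passing (2.23, SE 0.69, adjusted p = 0.202).

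Cmtm6 and Cmtm4, whose proteins stabilize PD-L1 at the cell surface, did not pass between hosts (−0.08, SE 0.18, adjusted p = 0.916, and −0.21, SE 0.12, adjusted p = 0.546). They went opposite ways against MC38 cells: Cmtm6 was higher (0.77 in wild type and 0.85 in RAG1-/- tumors, adjusted p = 0.0288 and 0.0195) and Cmtm4 lower (−0.92 and −0.71, adjusted p = 0.000321 and 0.00378). Against MC38 cells Ifngr1, Ifngr2 and Irf1 were also higher in tumors of either host.

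**Figure D4:**
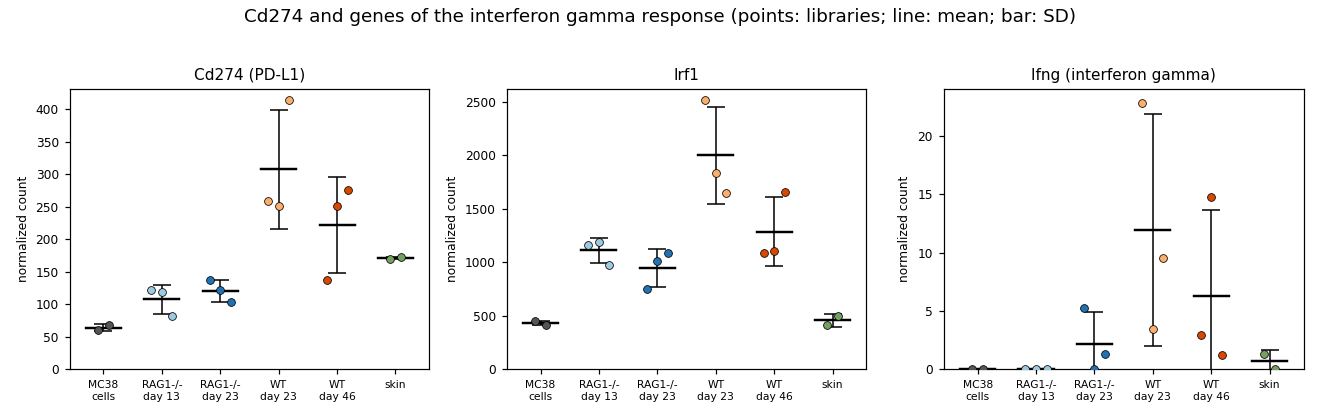
Normalized counts (linear axis from 0) of Cd274, Irf1 and Ifng in the 6 groups, with points for libraries, lines for group means and bars for the SD (n = 2 for MC38 cells and skin, n = 3 for tumors). Cd274 was higher in all 6 wild type tumors than in all 6 labelled RAG1-/-, and wild type day 23 had the highest means of Cd274, Irf1 and Ifng.

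CD40 on antigen-presenting cells induces CD80 and CD86 when engaged by its ligand. None of 6 tested genes of the CD40 axis passed over both days or at day 23 (medians 0.08 and 0.11), and Cd40 had 55.7 to 158 normalized counts in wild type tumors and 27.5 to 85.7 in those labelled RAG1-/-. Cd40 was read once in MC38 cells, and Cd40lg had 1 read in the 12 tumors. Of 6 tested genes of T cell receptor signalling, 3 were higher in wild type tumors over both days (Cd3d, Cd3e and Lck, against 0.570% of genes) and 1 at day 23 (Lck, against 0.231%), and none was lower. Cd3d and Cd3e passed the filter through wild type tumors alone, and their calls were foreseeable with hosts that make no mature T cells. Of 9 butyrophilins and other B7-like genes only 3 could be tested between tumor groups, and none passed. Btnl9 was higher in tumors of both hosts than in MC38 cells (3.15 in wild type and 3.72 in RAG1-/- tumors, adjusted p = 0.000401 and 8.12e-05), where it had no read, so that it passed the filter through the tumors alone. Of 4 tested genes of this list, 3 (Btnl9, Ildr2 and Btla) were lower in wild type tumors than in skin, where 34.2% of all genes were.

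For each member with enough reads, the 3 genes whose log2 profile lay closest over all 16 libraries were sought, by the root mean square difference after centring, among 16158 genes. Nearest to Cd274 were Nedd9, Rnf19b and Ly6e (0.41, 0.42 and 0.43 log2 units, against a median of 0.96 over all genes). Among the 3 nearest to Cd86 were Samsn1 and Ncf4 (0.28 and 0.31, median 2.50), and nearest to 4632428N05Rik were Selplg, Pld4 and Csf2rb (0.35, 0.37 and 0.40, median 2.77), none of which had more than 1.28 normalized counts on average in MC38 cells. Icosl lay nearest to Lrp1, Col5a1 and Cldn5 (0.42, 0.42 and 0.45, median 1.23), and Cd276 nearest to Slc43a3, B3galnt1 and Tmem141 (0.52, 0.55 and 0.62, median 2.12). The distances of Cd86, Cd276 and 4632428N05Rik rest largely on the step between MC38 cells and the other libraries.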

How the data were processed

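RNA of 16 samples in 6 groups was analysed. The authors prepared QuantSeq 3′ libraries for an Ion Proton, trimmed reads with Cutadapt and Trimmomatic, dropped those under 22 nucleotides, aligned to mm10 with STAR and then Bowtie2, kept the primary alignment of a read with several, discarded reads of ribosomal RNA and counted the rest per gene with HTSeq-count. The signal deposited by the authors is this count divided by a DESeq2 size factor. Versions and the strand setting are not given in the sources used here.

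In each library 100% of the deposited values were whole multiples (within 0.01 reads) of the value of 1 read, so reads were recovered. The normalized counts were tested with limma 3.58.1 (R 4.3.3, mean-dependent trend, two-sided) on log2(normalized count + 1) in genes averaging 5 or more over the libraries fitted, with Benjamini-Hochberg adjustment over all genes tested and a threshold of 0.05. This replaced the DESeq2 analysis of the methods, which was run on the recovered reads as an alternative and called more genes between tumor groups. The 12 tumors were fitted together in 4 groups, with MC38 cells or skin added for comparisons with these, and MC38 cells and skin were fitted alone. Members were also compared by exact permutation tests. Alternatives were edgeR 4.0.16 and DESeq2 1.42.0 on recovered reads, other pseudocounts (0.1 and 5), filters and scalings, no trend, a replicate block and each library left out. Pooled read ratios have a 95% interval, and these intervals and the floor of 3 reads cover counting error only.

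The 8 members and the lists of receptors, pathway genes and markers were chosen with earlier results of these data known. Named were all members, Rag1, genes of these lists and the 3 nearest profiles of each member. Replicates compared by a chi-square test all differed beyond sampling noise. Positions come from GENCODE for GRCm38 and promoters from RefSeq. A second deposited table, of 6 tumors of an anti-PD-L1 experiment, was not used here because its column names match no label. The counts of the interferon list and a few other results are not reported here.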

Additional observations from a re-analysis of the deposited data

How the results depend on the processing

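Over 662 refits of 41 member differences, 23 lost a call, 9 gained one, 5 changed sign and the others kept their direction and their side of the threshold. The higher Cd274 in wild type tumors over both days passed in 20 of 21 alternatives, all 12 without a library included. Without the trend in the spread, 0 members and 48 genes passed there (1 and 105 in the fit as reported), and DESeq2 called 283 genes. At day 23, DESeq2 called 2 members and 239 genes, edgeR 22 genes, the fit with no filter 22 and the fit without the trend 15 (0 and 41 as reported). Between days DESeq2 called 41 genes in wild type tumors and 206 in tumors labelled RAG1-/- (0 as reported in both). Between tumors labelled RAG1-/- and MC38 cells, 3 members passed with a pseudocount of 5 and 3 with no filter (5 as reported).

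Signs changed for small differences. Icosl in wild type tumors between days moved from 0.14 to −0.068 without day 23 replicate 2 and to −0.0080 without replicate 3, and over all libraries left out spanned −0.068 to 0.49. Cd274 in tumors labelled RAG1-/- between days moved from 0.18 to −0.0064 without day 13 replicate 3, in a span of −0.0064 to 0.28. 4632428N05Rik between wild type tumors and skin moved from −0.36 to 0.10 under upper quartile and 0.038 under total rescaling. The cause was not tested.

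With a library left out, 65 to 171 genes and 1 to 1 members passed between hosts over both days, and 5 to 60 genes and 0 to 0 members at day 23. Over both days the count moved most without RAG1-/- day 23 replicate 1 (65) or 3 (171), RAG1-/- day 13 replicate 3 (69) or wild type day 23 replicate 3 (68). At day 23 it fell most without wild type replicate 1 (8) or 3 (5) or RAG1-/- replicate 1 (7) or 2 (11). Between days 0 to 7 genes passed in wild type tumors, the 7 without day 46 replicate 1, and 0 to 37 in those labelled RAG1-/-, the 37 without day 13 replicate 2 (and 4 without day 23 replicate 2), with 0 to 0 members in both. Against MC38 cells 1832 to 3569 genes and 3 to 5 members passed in tumors labelled RAG1-/-, and 2172 to 4396 genes and 5 to 5 members in wild type tumors, with the lowest counts of genes without MC38 replicate 2 (and 1960 and 2294 without replicate 1). Against skin 7108 to 9355 genes and 1 to 3 members passed in wild type tumors, and 6253 to 7400 genes and 3 to 6 members in MC38 cells, the 6253 without skin replicate 1 (and 6458 without replicate 2). A lone library left in a group is assumed to vary like the others.

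Replicate numbers do not pair the samples: same-numbered tumors of different groups had correlations of −0.22 to 0.19, over 0.1 in 4 of 18 pairs. With the replicate number as a block, 109 and 39 genes passed between hosts over both days and at day 23, 0 and 0 between days, 3316 and 3794 against MC38 cells (RAG1-/- and wild type), 9119 between wild type tumors and skin and 10671 between MC38 cells and skin. The call of Cd274 between tumors labelled RAG1-/- and MC38 cells was lost under this block (adjusted p = 0.0808).

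Depth limits Pdcd1lg2 and Cd80, at 0 to 9 reads per library, and Vtcn1 in the tumors, and 3 tumors a group limit the rest. No value of a member stood far from the other tumors of its host in the groups of 6 examined, which left out Vtcn1, at no more than 1 read per tumor. The second table and differences by sex or batch were not examined.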
